A study of Mus musculus with 9 samples.

Results

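The nuclear-encoded subunits of the mitochondrial respiratory chain were followed in bulk RNA sequencing of the mouse cochlear duct at E14.5. Members were chosen by symbol, as protein-coding genes starting with Ndufa, Ndufb, Ndufc, Ndufs, Ndufv, Uqcr, Cox4i, Cox5, Cox6, Cox7 or Cox8, together with Sdha, Sdhb, Sdhc and Sdhd. Assembly factors of the Ndufaf group, Cox7a1 and Cox8b were left out by the same rule. A member also had to hold 10 or more counts in at least 3 of the 9 libraries, and 61 of the 54232 genes in the count tables met both conditions, 36 of complex I, 4 of complex II, 8 of complex III and 13 of complex IV. The remaining 5 genes that matched by symbol were Ndufs5, Ndufa4l2, Cox6a2, Cox7b2 and Cox8c, which stayed under the count minimum. Libraries came from 3 WT (Prdm16+/+), 3 heterozygote (Prdm16cGT/+) and 3 null (Prdm16cGT/cGT) littermates of heterozygote matings on an FVB/NJ background, each library holding the cochlear ducts of both inner ears of a single embryo. The cGT allele is a gene trap that is null for Prdm16 and was carried in every cell of the mutant embryos, so that effects from outside the duct cannot be told apart from those within it. The comparisons addressed how loss of Prdm16, a transcriptional regulator present in Kölliker's organ of the duct floor, changed the RNA of the duct. The tissue was sequenced in bulk, and fewer cells of a type and less RNA per cell cannot be told apart.

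The respiratory chain sits in the inner mitochondrial membrane and passes electrons from NADH and succinate to oxygen. Complex I takes electrons from NADH and complex II from succinate, both hand them to ubiquinone, complex III passes them on to cytochrome c, and complex IV gives them to oxygen, while complexes I, III and IV pump the protons that drive ATP synthase. Complexes I, III and IV hold subunits from both nuclear and mitochondrial DNA, whereas complex II is nuclear throughout. In fat cells, PRDM16 is known as a regulator of the brown fat programme, in which mitochondrial genes are strongly expressed.

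Total counts ranged from 24095322 to 30819118 per library. Prdm16 (ENSMUSG00000039410) was measured at 225, 197 and 184 CPM (counts per 1000000 of the library after TMM scaling) in the WT embryos, at 151, 123 and 141 in the heterozygotes and at 23.7, 19.1 and 27.4 in the null embryos, in the order of the labels. All 7 listed markers of Kölliker's organ, Prdm16 among them, fell in the null embryos, with a median log2 fold change of -1.8, a list with genes that the study followed in this mutant and so no independent evidence of their direction. Epithelial markers (Epcam, Cdh1, Krt8 and others) summed to between 2000 and 2260 CPM in 8 libraries and to 2760 CPM in null embryo 2, and all 6 were detected. The markers of the roof and of the outer sulcus were also highest in null embryo 2, with 14200 CPM against 8030 to 11500 and 1780 CPM against 1060 to 1550 in the other libraries, and the part of these cell types in the values of that embryo was not tested. Mesenchyme markers were uneven, with sums in CPM of 490 in WT embryo 1, 930 in WT embryo 2 and 1720 in null embryo 3, against 40.0 to 113 in the other 6 libraries. The same libraries, in that order, were highest in endothelial markers, at 82.9, 68.1 and 48.1 CPM against 2.1 to 5.96. So they were in immune markers, at 10.2, 11.5 and 7.17 CPM against 1.79 to 2.75. Null embryo 2 stood apart from the other libraries in a different way that bears directly on the respiratory chain. All 61 subunits lay above the WT mean in that embryo, and 57 of them were higher there than in each of the other 8 libraries. The members' counts, medians and described log2 fold changes from WT in the main comparisons are given below with and without it. The 37 genes of the mitochondrial chromosome held 0 counts in all libraries, so the mitochondrially encoded subunits were not analysed here.

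The respiratory chain genes spanned a wide range of levels, and most varied little between WT embryos. Levels between genes are given per length, as RPKM (CPM per kilobase of merged exons), as mean ± SD over 3 embryos. The median member reached 31.5 RPKM in WT, and the median of each complex was 28.2 RPKM for complex I, 46.5 for complex II, 49.3 for complex III and 43.5 for complex IV. Per length of the principal transcript in place of merged exons these medians were higher, at 52.3 RPKM over all members and 44.6, 72.9, 68.9 and 66.5 for complexes I to IV. Together the members took between 0.341% and 0.469% of the counts of a library, the highest share in null embryo 2. The coefficient of variation between the 3 WT embryos had a median of 5.41% over the members, from 1.36% for Uqcrc1 to 24.2% for Cox4i2, against 8.64% over the 17797 genes tested.

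**Figure D1:**
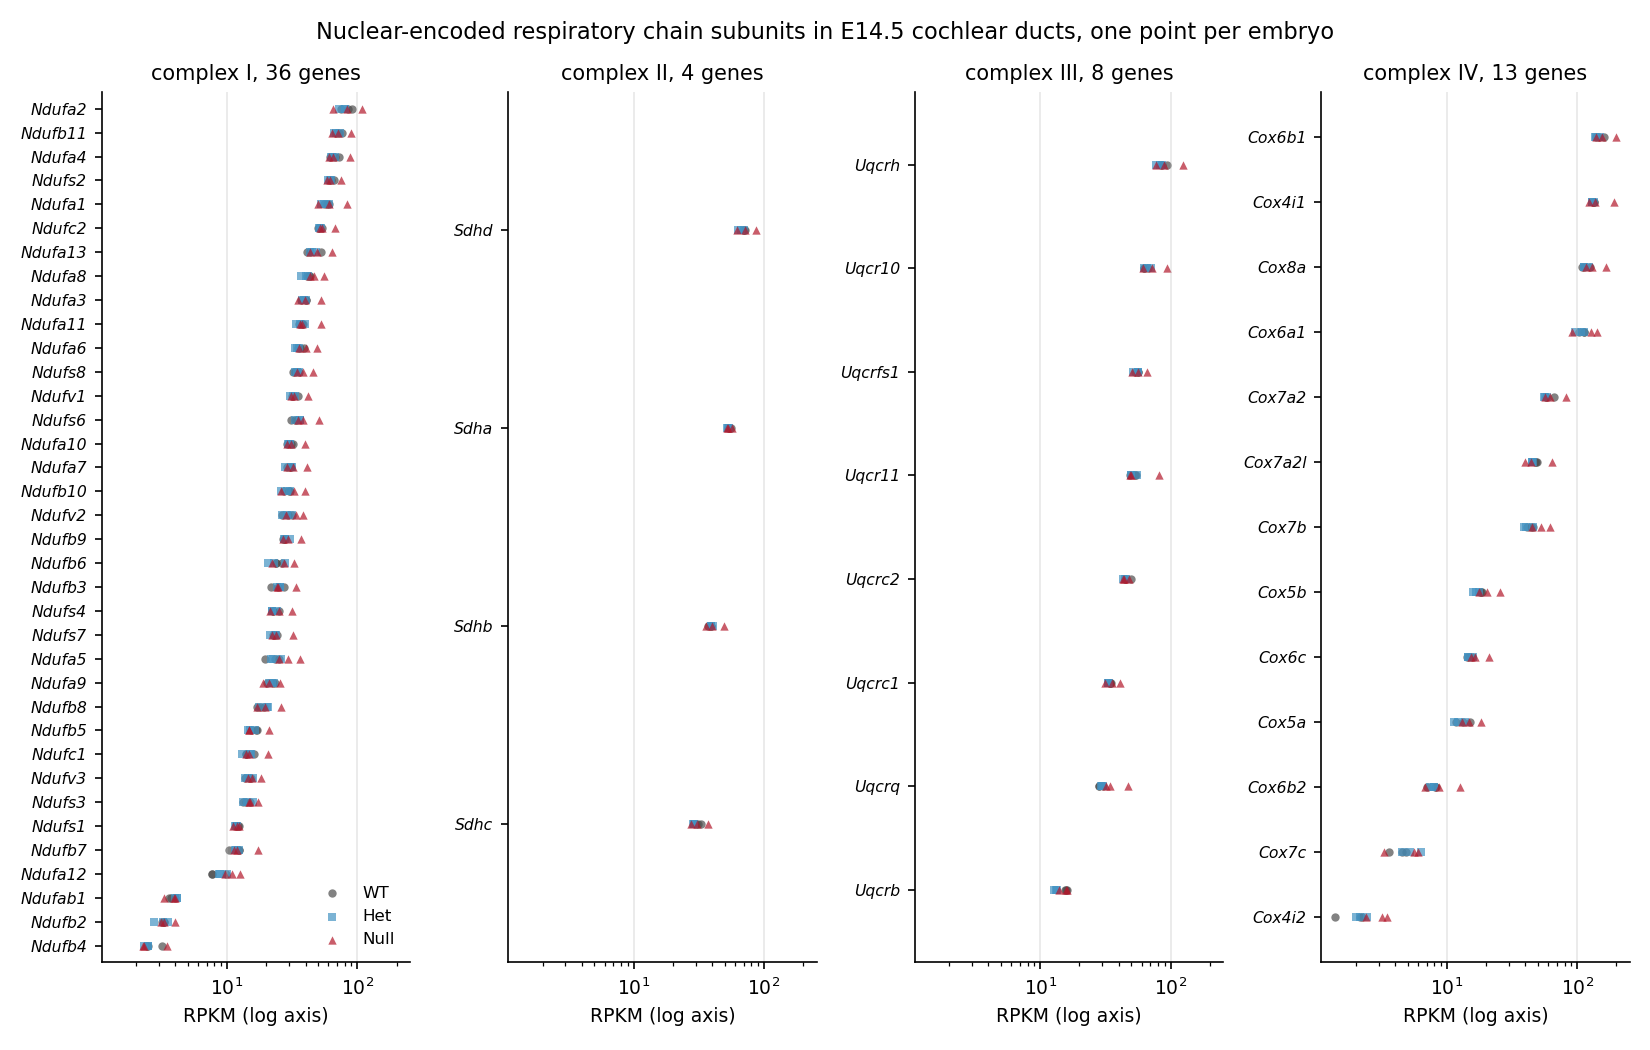
RPKM of each of the 61 subunits on a log axis, in 1 panel per complex, with a point for every embryo (grey circles WT, blue squares heterozygote, red triangles null) and genes ordered by WT mean. Levels run from 1.93 RPKM for Cox4i2 to 149 RPKM for Cox6b1 in WT, and in most rows a single red triangle, null embryo 2, lies to the right of the other 8 points.

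Complex IV held both ends of the range. Cox6b1, a subunit on the intermembrane side, stood at 149 ± 10.4 RPKM in WT, Cox4i1, the ubiquitous isoform of subunit 4, at 134 ± 2.23, Cox8a at 116 ± 8.55 and Cox6a1, the non-muscle isoform of subunit 6a, at 109 ± 5.47. Per length of merged exons these 4 genes were the highest of all members, and of the neighbours in that order only Cox8a and Cox6a1 had overlapping SDs. In complex III, the hinge protein Uqcrh was highest at 88.0 ± 5.39 RPKM and Uqcrb, a subunit beside the ubiquinone site, lowest at 15.7 ± 0.221. In complex II, the membrane anchor Sdhd stood at 70.1 ± 1.71 RPKM, the flavoprotein Sdha at 54.3 ± 1.63, the iron-sulfur subunit Sdhb at 38.7 ± 1.01 and the second anchor Sdhc at 31.5 ± 1.43, and no SDs overlapped between neighbours. In complex I, Ndufa2 of the peripheral arm was highest at 83.4 ± 7.58 RPKM and Ndufb4 of the membrane arm lowest at 2.70 ± 0.413. These orders depended on the length used. By principal transcript length the highest members were Cox4i1 at 271 ± 4.53 RPKM, Uqcrh at 199 ± 12.2, Cox6b1 at 170 ± 12 and Ndufa4 at 152 ± 12.3. Cox6a1 followed at 134 ± 6.73 and Cox8a at 131 ± 9.62. The SD of Ndufa4 overlapped those of Cox6b1, Cox6a1 and Cox8a. In complex II the order became Sdha at 77.2 ± 2.31, Sdhb at 75.8 ± 1.99, Sdhd at 70.1 ± 1.71 and Sdhc at 32.2 ± 1.47, with overlapping SDs for Sdha and Sdhb. Ndufb2 replaced Ndufb4 as the lowest of complex I with 4.19.

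Paralogous isoforms differed widely in level. Cox4i2, the isoform of subunit 4 known from lung and from low oxygen, was at 1.93 ± 0.467 RPKM in WT against 134 for Cox4i1. Cox6b2, known from testis, was at 7.79 ± 0.678 RPKM against 149 for Cox6b1. Cox6a2, the isoform of heart and skeletal muscle, held 0 counts in every library, which allows at most 3 counts or 0.0969 to 0.126 CPM per library and covers counting error only. Cox7b2 and Cox8c also held 0 counts throughout. Cox7a2 and Cox7a2l, the latter a factor that joins complexes III and IV into supercomplexes, were closer together at 60.6 ± 5.37 and 48.4 ± 0.810 RPKM. Ndufa4, named for complex I and later assigned to complex IV, was counted here with complex I by its symbol. Ndufa4 was at 67.0 ± 5.45 RPKM, while its paralogue Ndufa4l2 had 6, 5 and 3 counts in WT, 0, 1 and 0 in the heterozygotes and 1, 0 and 23 in the null embryos. The 23 counts were in null embryo 3, the library highest in mesenchyme markers, whose part in that value was not tested.

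Some low values stood beside sequence that the gene shares with other annotated genes. Of the 50-base windows along the principal transcript, as long as the reads of the study, 53.0% for Cox7c, 43.2% for Uqcrb, 37.0% for Ndufb4, 35.8% for Ndufs3 and 31.1% for Ndufs5 were also found exactly in another annotated gene, in each case a pseudogene. Such windows made up 10% or more in 12 members and were absent in 37, and the median WT level was 15.2 RPKM in those 12 against 33.8 in the other 49. Cox7c, an integral subunit of complex IV, was at 4.32 ± 0.636 RPKM, and Ndufs5, a supernumerary subunit of complex I, held only 1 to 11 counts per library. How reads with several matches were counted is not given in the sources used here, and its part in these levels was not tested. The first 50 coding bases of these genes are shown, since each stretch is found unchanged in another gene, and capitals are not used because no position differs.
Ndufb4: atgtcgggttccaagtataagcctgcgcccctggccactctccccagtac
Ndufs5: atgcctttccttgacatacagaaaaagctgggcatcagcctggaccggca
Cox7c: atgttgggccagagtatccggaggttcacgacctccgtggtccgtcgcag

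No subunit passed the test between null and WT embryos. By edgeR's quasi-likelihood test with Benjamini-Hochberg adjustment over 17168 genes, a call being an adjusted p under 0.05 with an absolute log2 fold change over 0.5, 0 of 61 members were called higher and 0 lower, where 0.92% and 0.786% of all genes were, and the smallest adjusted p of a member was 0.342. At an unadjusted p under 0.05 there were 4 members by edgeR, 5 by DESeq2 and 4 by limma-voom, against 12.2% of all genes by edgeR. The median log2 fold change of the members was 0.15 (0.01 over all genes), and 54 of 61 lay above 0, against 51.9% of all genes. Without null embryo 2 the median was -0.01, 27 of 61 lay above 0 against 51.4% of all genes, and again 0 members were called by edgeR, with 2 at an unadjusted p under 0.05 against 12.2% of all genes, where 0.615% of all genes were called higher and 0.485% lower. The members' 95% interval lay within a 1.5-fold change in either direction for 51 of 61 genes, and for 56 of 61 without null embryo 2. Cox4i2 alone had an absolute log2 fold change over 0.5, so the fold threshold left out the other 60 members, but without that threshold 0 members had an adjusted p under 0.05 as well. In simulated data of this design an adjusted p under 0.05 was reached by 1.49% of genes changed by 0.5 on the log2 scale and by 54.5% of those changed by 1. Without WT embryos 1 and 2 and null embryo 3, the libraries highest in mesenchyme markers, the median was 0.26 with 59 of 61 above 0 (53% of all genes). That fit of the remaining 6 libraries held 1 WT embryo, assumed to vary like the other genotypes, so its calls are not given here. It kept null embryo 2, where the members' median log2 difference from the WT mean was 0.41, beside null embryo 1 alone. The WT embryo left had the lowest such median of the WT embryos, at -0.06. A median without null embryo 2 was not taken for this fit, and the part of that embryo in the 0.26 was not tested.

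**Figure D2:**
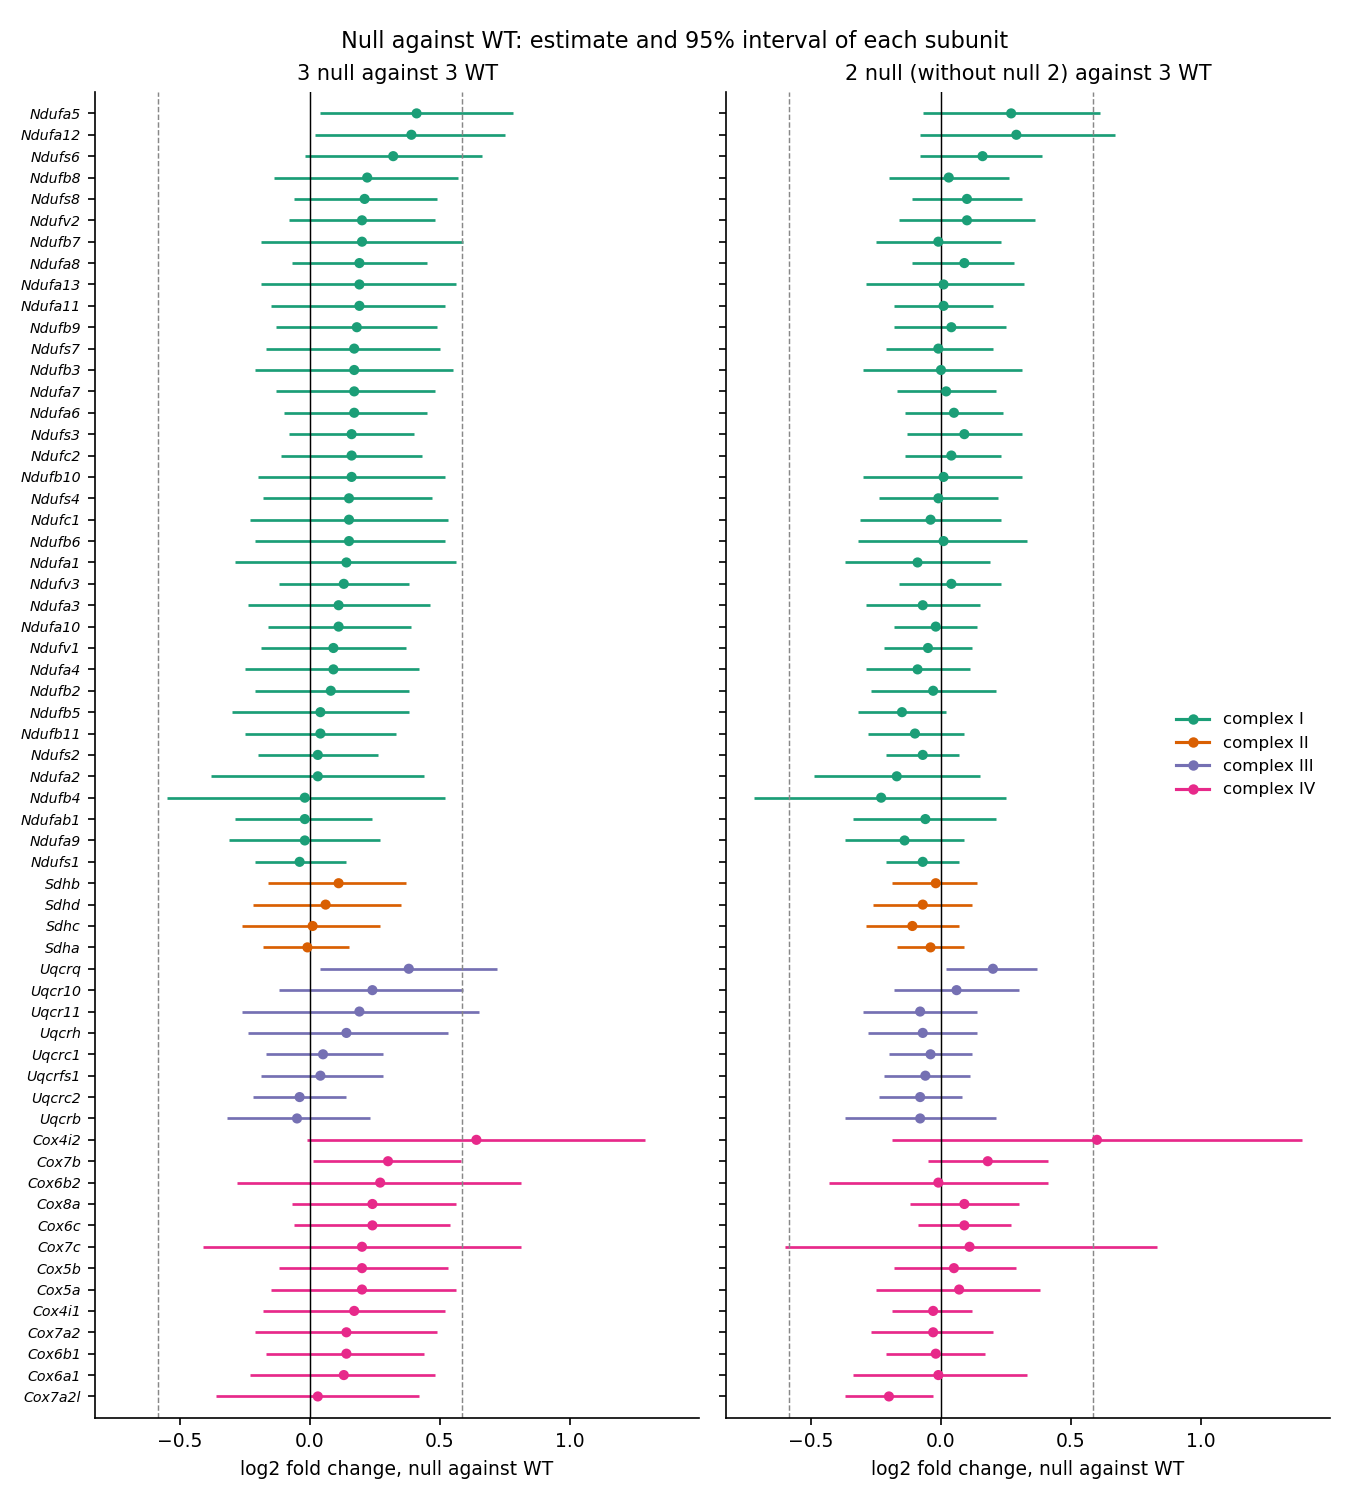
Log2 fold change of each subunit between null and WT embryos (points) with its 95% interval (bars), coloured by complex, with all 3 null embryos on the left and without null embryo 2 on the right; dashed lines mark a 1.5-fold change. On the left 54 of 61 points lie above 0, and on the right 27.

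The shift above 0 over all members was mostly that of a single embryo. As the median log2 difference of the 61 members from the WT mean, the null embryos 1, 2 and 3 stood at -0.07, 0.41 and 0.04, the heterozygotes at -0.05, -0.04 and 0.04, and the WT embryos at 0.01, 0.05 and -0.06. Null embryo 3 thus fell among the WT and heterozygote values, null embryo 1 lay just below the lowest of them, and null embryo 2 lay far above the highest. Null embryo 1 was the lowest of the 9 libraries in 22 members and null embryo 3 in 4. Complex IV departed from this in null embryo 3, where its median was 0.15 with 11 of 13 members above the WT mean, against -0.07 to 0.05 in the WT and heterozygote embryos and 0.00 to 0.04 for the other complexes in the same embryo. Between null embryos 1 and 3 the members had no common direction, with 12 members above the WT mean in both, 14 below it in both and 35 on opposite sides. Summed over the members, the level was 3467 to 3744 CPM in WT, 3450 to 3650 in the heterozygotes and 3396, 4665 and 3711 in the null embryos.

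**Figure D3:**
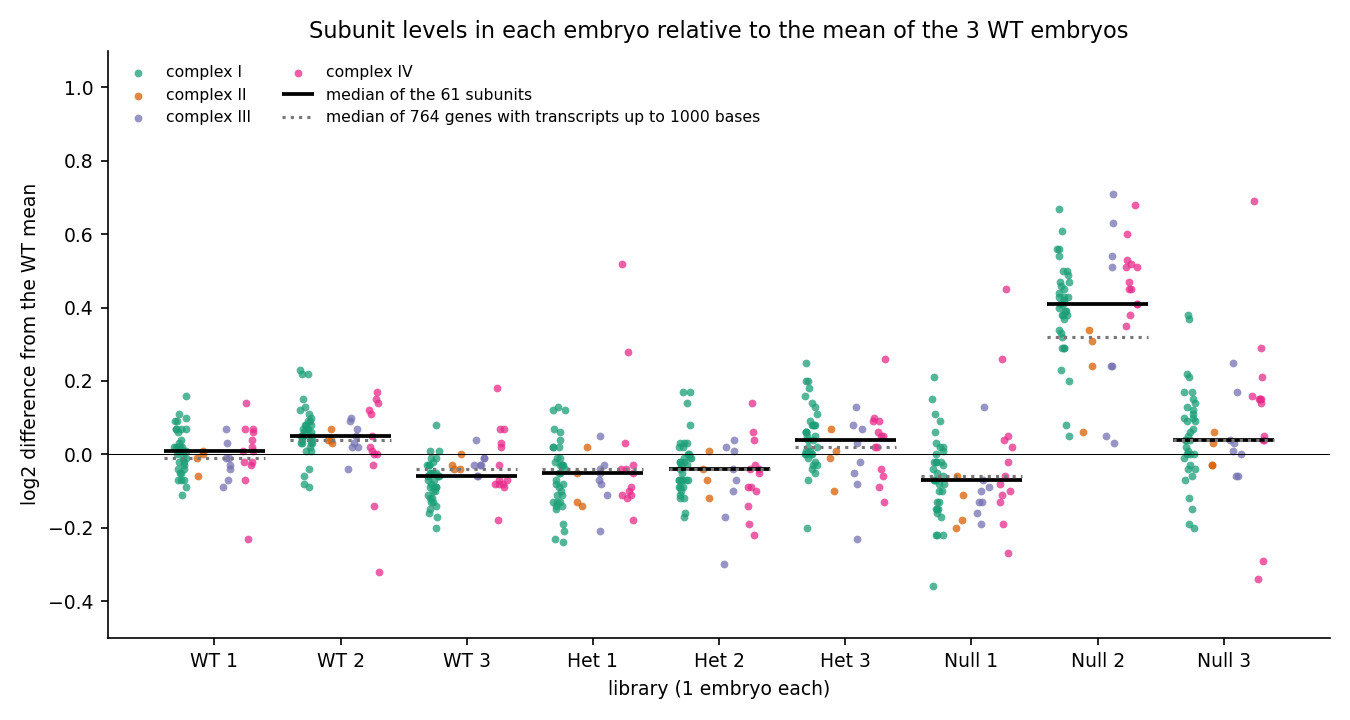
Log2 difference of every subunit from the mean of the 3 WT embryos in each of the 9 libraries, with points coloured by complex, a black bar at the median of the 61 subunits and a dotted bar at the median of the 764 tested genes with transcripts of up to 1000 bases. Null 2 is the only library with all points above 0, its bars lying at 0.41 and 0.32.

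Complex I, the largest group, followed the same course. Its 36 members had a median log2 fold change of 0.16 between null and WT with 32 above 0, and -0.002 with 18 above 0 without null embryo 2. The 7 core subunits, which carry the flavin and the iron-sulfur clusters or lie next to them, and the 29 supernumerary ones had like medians, 0.16 and 0.15 in all embryos and -0.008 and 0.004 without null embryo 2. Ndufa5, a supernumerary subunit of the peripheral arm, was at 26.0, 23.9 and 20.1 CPM in WT, 22.4, 23.1 and 26.7 in the heterozygotes and 25.8, 37.3 and 30.3 in the null embryos. The null and WT ranges of Ndufa5 overlapped, and its log2 fold change was 0.41 (SE 0.16, adjusted p = 0.345 by edgeR) and 0.27 without null embryo 2. Ndufa12, of the same arm, was at 12, 15.4 and 12 CPM in WT, 13.5, 13.8 and 15.6 in the heterozygotes and 15.2, 19.6 and 17.0 in the null embryos, a log2 fold change of 0.39 (SE 0.157, adjusted p = 0.375 by edgeR) and 0.29 without null embryo 2. Of the Ndufa12 windows, 26.2% were found in another gene. Ndufs6, which binds zinc in the peripheral arm, was at 30.0, 31.1 and 27.7 CPM in WT, 32.5, 30.0 and 32.8 in the heterozygotes and 31.6, 45.3 and 34.4 in the null embryos. Its null and WT values did not overlap, as was so for 10.1% of all genes in this direction, and its log2 fold change was 0.32 (SE 0.146, adjusted p = 0.435 by edgeR) and 0.16 without null embryo 2.

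At the lower end of complex I the mean changes were close to 0, in some genes with null embryos on both sides of WT. Ndufs1, the large iron-sulfur subunit of the core, was at 93.9, 99.9 and 97.5 CPM in WT, 95.3, 96.5 and 93.7 in the heterozygotes and 95.6, 100 and 89.2 in the null embryos, a log2 fold change of -0.04 with a 95% interval from -0.21 to 0.14, and -0.07 without null embryo 2. Ndufab1, the mitochondrial acyl carrier protein, was at 25.5, 24.9 and 27.5 CPM in WT, 28.3, 28.6 and 27.5 in the heterozygotes and 27.1, 27.4 and 22.5 in the null embryos. Its null embryo 3 was the lowest of the 9 libraries, and the log2 fold change was -0.02 (95% interval -0.29 to 0.24) and -0.06 without null embryo 2. Ndufa9, at the foot of the peripheral arm, was at 48.6, 47.7 and 42.4 CPM in WT, 44.1, 46.3 and 48.2 in the heterozygotes and 39.7, 53.3 and 44.1 in the null embryos, a log2 fold change of -0.02 and -0.14 without null embryo 2. Ndufb4 was at 4.78, 6.08 and 4.65 CPM in WT, 4.74, 4.72 and 4.39 in the heterozygotes and 4.34, 6.59 and 4.44 in the null embryos. With only 105 to 204 counts per library it had the widest interval of the complex in this comparison, from -0.55 to 0.52 around a log2 fold change of -0.02, which was -0.23 without null embryo 2. For Ndufa9 and Ndufb4 alike, null embryo 1 was the lowest library and null embryo 2 the highest.

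Ndufa2 and Ndufa4, among the most abundant per length of the genes counted with complex I, also had null embryos on both sides of the WT mean. Ndufa2 was at 48.2, 51.8 and 43.2 CPM in WT, 41.0, 46.0 and 46.2 in the heterozygotes and 37.1, 61.9 and 47.6 in the null embryos, a log2 fold change of 0.03 (95% interval -0.38 to 0.44) and -0.17 without null embryo 2. Ndufa4 was at 93.4, 99.6 and 84.6 CPM in WT, 87.3, 88.0 and 92.6 in the heterozygotes and 84.1, 122 and 90.0 in the null embryos, a log2 fold change of 0.09 (95% interval -0.25 to 0.42) and -0.09 without null embryo 2. In both genes null embryo 1 lay below every other library.

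In complex II the null and WT values overlapped in all 4 genes, while the heterozygote values of Sdhc lay below WT. Sdha was at 224, 231 and 217 CPM in WT, 216, 218 and 222 in the heterozygotes and 215, 233 and 220 in the null embryos, and its log2 fold change of -0.01 had a 95% interval from -0.18 to 0.15. Sdha was among the members nearest to the WT mean in null embryo 2, at a log2 difference of 0.06. Sdhb was at 87.3, 88.3 and 84.0 CPM in WT, 87.5, 87.1 and 90.9 in the heterozygotes and 80.2, 110 and 90.1 in the null embryos. Sdhc was at 97.8, 107 and 102 CPM in WT, 93.3, 94.0 and 95.2 in the heterozygotes and 89.0, 121 and 100 in the null embryos. Sdhd was at 85.8, 88.7 and 84.5 CPM in WT, 78.5, 82.1 and 86.9 in the heterozygotes and 76.1, 107 and 88.2 in the null embryos. For both anchors the WT values lay inside the null range. The 4 log2 fold changes ran from -0.01 to 0.11 with all embryos and from -0.11 to -0.02 without null embryo 2, and none was called in either fit.

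With all embryos, complex III held the member with the smallest p between null and WT. Uqcrq (chr11:53427922-53430831, minus strand), a small supernumerary subunit, was at 55.8, 51.5 and 52.1 CPM in WT, 54.8, 53.8 and 55.9 in the heterozygotes and 58.2, 86.9 and 63.2 in the null embryos. All 3 null values of Uqcrq were above all 6 others, null embryo 2 most. Its log2 fold change was 0.38 (SE 0.147, 95% interval 0.04 to 0.72, adjusted p = 0.342 by edgeR) and 0.20 without null embryo 2 (95% interval 0.02 to 0.37, adjusted p = 0.359 by edgeR). Uqcrc2, one of the core proteins, was at 115, 126 and 114 CPM in WT, 115, 111 and 117 in the heterozygotes and 111, 122 and 113 in the null embryos, a log2 fold change of -0.04 with a 95% interval from -0.22 to 0.14, and -0.08 without null embryo 2. Uqcrh was at 104, 116 and 106 CPM in WT, 107, 96.4 and 103 in the heterozygotes and 95.5, 155 and 111 in the null embryos, a log2 fold change of 0.14 and -0.07 without null embryo 2. Its null values spanned all the others. The log2 fold changes of the 8 genes ran from -0.05 for Uqcrb (-0.08 without null embryo 2) to 0.38 for Uqcrq, with a median of 0.10, and -0.07 without null embryo 2.

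In complex IV all 13 members lay above 0 between null and WT, with a median log2 fold change of 0.20, and 7 of 13 did so without null embryo 2, with a median of 0.05. Cox4i2 (chr2:152754173-152765037, plus strand) was at 1.7, 1.1 and 1.76 CPM in WT, 1.93, 1.69 and 1.57 in the heterozygotes and 1.90, 2.52 and 2.72 in the null embryos. Its null values were all above the WT values, but these levels rest on 28 to 78 counts per library. The log2 fold change of 0.64 was the largest of the members and had the largest error (SE 0.281, 95% interval -0.01 to 1.29, adjusted p = 0.419 by edgeR), and it was 0.60 without null embryo 2. Its highest value was in null embryo 3, the library highest in mesenchyme markers, and the part of those markers in its value was not tested. Its log2 fold change was 0.34 in the fit without the 3 libraries highest in those markers, which leaves out both its highest null and its lowest WT value and holds 1 WT embryo. Cox4i1 was at 210, 208 and 204 CPM in WT, 201, 200 and 210 in the heterozygotes and 191, 296 and 214 in the null embryos, a log2 fold change of 0.17 (95% interval -0.18 to 0.52) and -0.03 without null embryo 2 (95% interval -0.19 to 0.12). Cox4i2, Uqcrq and Ndufs6 were the only members whose null values lay wholly above WT, 3 of 61 against 10.1% of all genes, and 0 members lay wholly below, against 8.95% of all genes.

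Null and WT values overlapped in the other isoforms of complex IV. Cox6a1 was at 78.7, 79.3 and 72.4 CPM in WT, 67.5, 74.8 and 79.8 in the heterozygotes and 63.7, 99.8 and 88.9 in the null embryos. Cox6b1 was at 104, 113 and 98.9 CPM in WT, 96.6, 98.5 and 106 in the heterozygotes and 99.3, 140 and 109 in the null embryos. Cox6b2 was at 9.08, 7.77 and 9.06 CPM in WT, 8.80, 8.87 and 8.23 in the heterozygotes and 7.51, 14.1 and 9.60 in the null embryos. In each of these genes null embryo 1 was below the WT mean and null embryo 2 above every other library. Their log2 fold changes were 0.13, 0.14 and 0.27, and -0.01, -0.02 and -0.01 without null embryo 2. Cox7a2 was at 54.3, 63.1 and 54.3 CPM in WT, 52.7, 53.7 and 55.6 in the heterozygotes and 53.1, 78.0 and 58.6 in the null embryos, a log2 fold change of 0.14 and -0.03 without null embryo 2. Cox7b and Cox7c, singled out after their values were seen, differed in how well they were measured, with log2 fold changes of 0.30 (SE 0.122, adjusted p = 0.386 by edgeR) and 0.20 (SE 0.263, adjusted p = 0.81 by edgeR). Without null embryo 2 these were 0.18 for Cox7b and 0.11 for Cox7c.

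**Figure D4:**
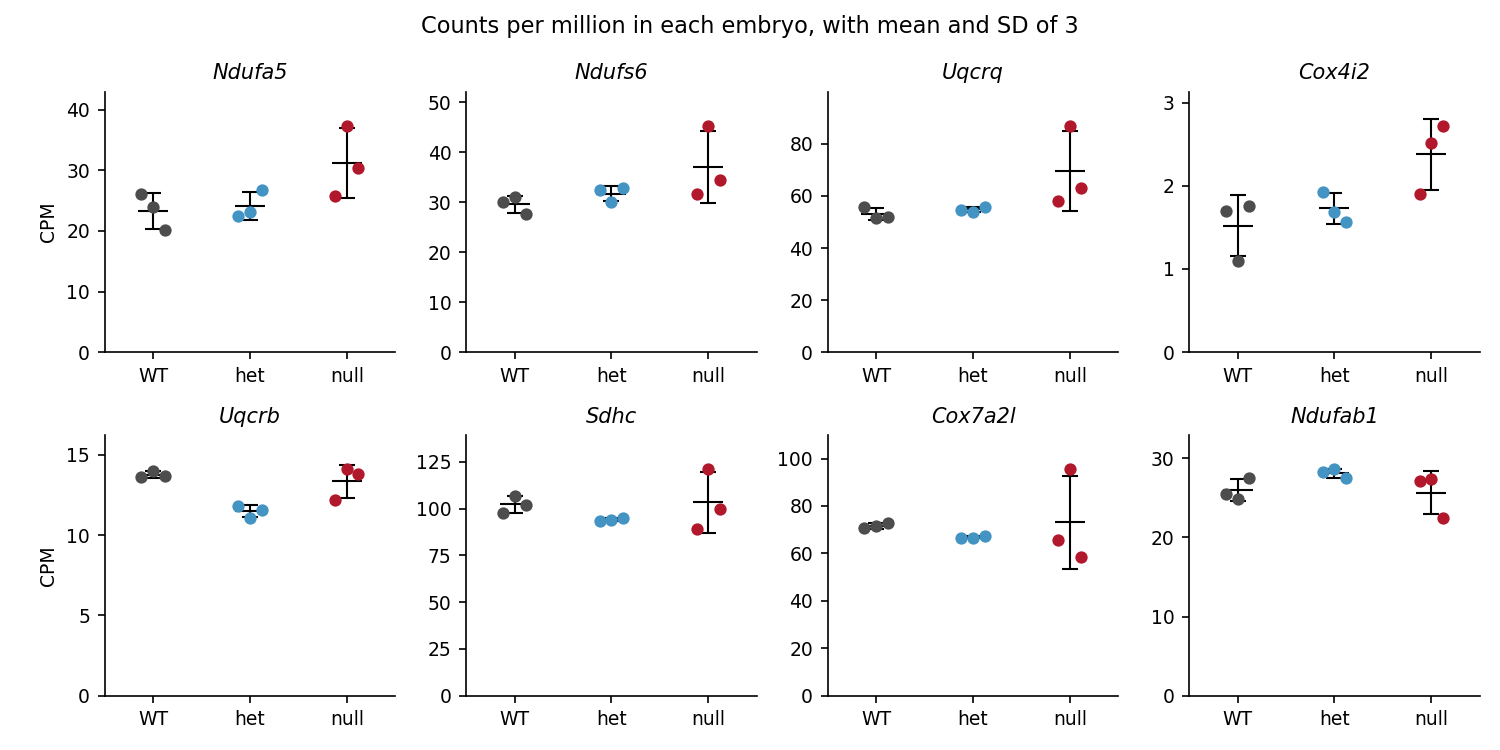
CPM of 8 members in each embryo, with points for embryos 1, 2 and 3 from left to right, the mean as a horizontal bar and the SD of 3 embryos as whiskers, on axes starting at 0. Null embryo 2 is the highest point for Ndufa5, Ndufs6, Uqcrq, Uqcrb, Sdhc and Cox7a2l, while the heterozygotes lie wholly below WT for Uqcrb, Sdhc and Cox7a2l.

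The heterozygotes could be compared with WT more closely, and no subunit was called. By edgeR 0 of 61 members were called higher and 0 lower among 17269 genes, of which 0.0521% and 0.0984% were called, the smallest adjusted p of a member was 0.266, and 3 members had an unadjusted p under 0.05, against 13.1% of all genes (1 by DESeq2 and 2 by limma-voom). The median log2 fold change was -0.03 (0.00 over all genes) with 19 of 61 above 0 against 50% of all genes, and the 95% interval lay within a 1.5-fold change for 59 of 61 members. Uqcrb (chr13:66900617-66905378, minus strand) was at 13.6, 14 and 13.7 CPM in WT, 11.8, 11.1 and 11.6 in the heterozygotes and 12.2, 14.1 and 13.8 in the null embryos. Its heterozygote values lay below those of every other library, with a log2 fold change from WT of -0.25 (SE 0.0923, adjusted p = 0.266 by edgeR), and 43.2% of its windows were shared with other genes. The heterozygote values of Sdhc, given above, had a log2 fold change from WT of -0.12 (SE 0.0459, adjusted p = 0.297 by edgeR). Cox7a2l was at 70.5, 71.4 and 72.8 CPM in WT, 66.5, 66.6 and 67.3 in the heterozygotes and 65.5, 95.4 and 58.5 in the null embryos, a log2 fold change between heterozygote and WT of -0.10 (SE 0.044, adjusted p = 0.374 by edgeR). Between null and WT, Cox7a2l was at 0.03, and -0.20 without null embryo 2 (95% interval -0.37 to -0.03, adjusted p = 0.313 by edgeR). It had the smallest p of the members in that fit. Heterozygote values lay wholly below WT in 5 members, these 3 with Uqcrc1 and Cox5b, and wholly above in Ndufab1, against 8.99% and 8.97% of all genes.

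Between null and heterozygote embryos, which share the null embryos with the first comparison, 0 of 61 members were called in either direction by edgeR, where 0.293% of 17067 genes were called higher and 0.322% lower. The smallest adjusted p of a member was 0.362, and 6 members had an unadjusted p under 0.05 (7 by DESeq2, 4 by limma-voom), against 11.4% of all genes. The median log2 fold change was 0.18 with 57 of 61 above 0 (52.3% of all genes), and 0.01 with 35 of 61 above 0 (50.6% of all genes) without null embryo 2, when 0 members had an unadjusted p under 0.05 (12.7% of all genes). Of all genes 0.292% were then called higher and 0.246% lower. Null values lay wholly above the heterozygotes in Ndufa8, Uqcrq and Uqcrb and wholly below in Ndufab1, against 9.06% and 9.09% of all genes. A test for any difference among the 3 genotypes over all 9 libraries called 0 of 61 members and 2.31% of 17797 genes by edgeR, with 5 members at an unadjusted p under 0.05 (6 by DESeq2) against 14.3% of all genes.

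The values of null embryo 2 ran with transcript length, and the cause of this trend was not tested. The principal transcripts of the members were short, with a median of 865 bases, from 419 for Ndufa1 to 4371 for Ndufb2, against 3069 bases over all protein-coding genes tested. In null embryo 2 the median log2 difference from the WT mean was 0.45 for the 35 members with transcripts of up to 1000 bases, 0.36 for the 20 members above that and up to 2000 bases, and 0.08 for the 5 members above that and up to 4000 bases. All protein-coding genes of the same classes stood at 0.32, 0.22 and 0.05 in that embryo, and those over 4000 bases at -0.20. In these 3 classes the members followed the order of all genes with medians above theirs. Ndufb2, the only member over 4000 bases, departed from that order at 0.29. Across the 61 members the difference in null embryo 2 and log2 transcript length had a Pearson r of -0.57 and a Spearman rho of -0.51, and across 14215 genes -0.35 and -0.47, given as descriptions since the genes share one library. In the other 8 libraries the members' Pearson r lay between -0.23 and 0.14. With the length trend of each library taken out, the null to WT median was 0.07 with 45 of 61 members above 0, against 50.7% of all genes. By edgeR 0 members were called in that fit, where 1.25% of all genes were called higher and 0.88% lower. The same step left the null to heterozygote median at 0.13 with 56 of 61 above 0 and the heterozygote to WT median at -0.05 with 13 of 61 above 0. At an unadjusted p under 0.05 there were then 8 and 5 members, against 13.5% and 13.4% of all genes.

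**Figure D5:**
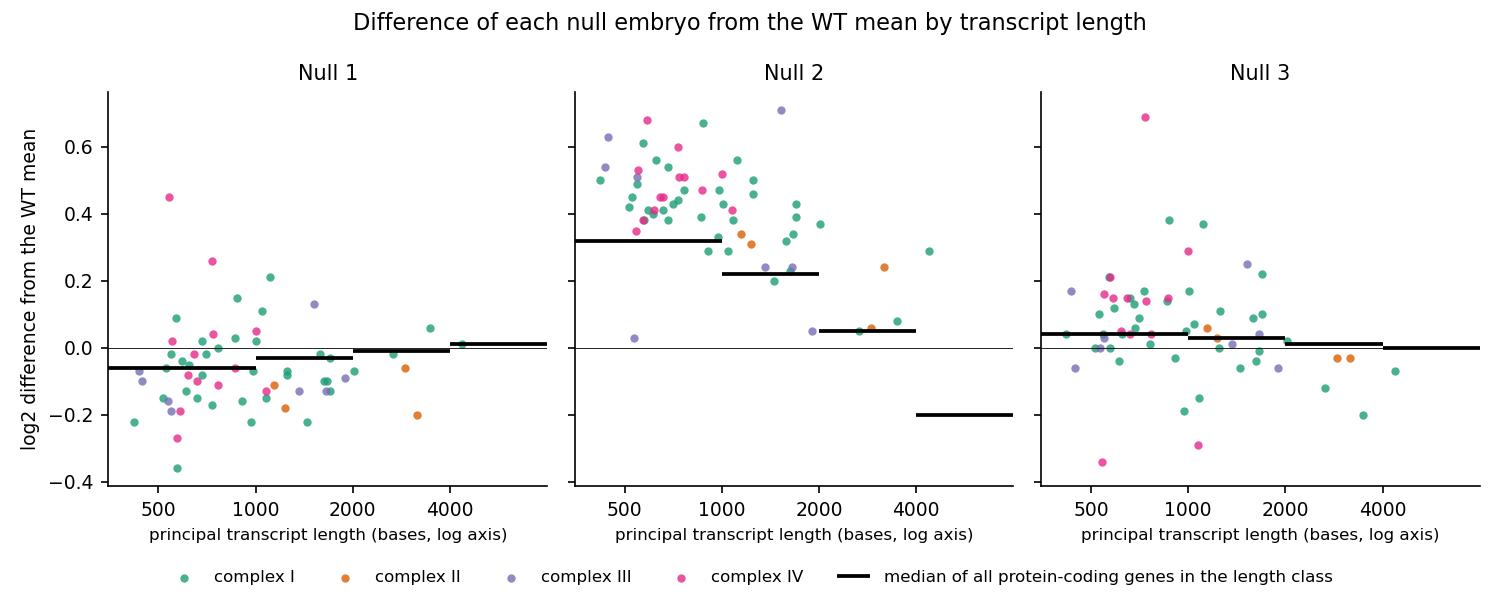
Log2 difference of each subunit from the WT mean in null embryos 1, 2 and 3 against principal transcript length (log axis), coloured by complex, with black bars at the median of all protein-coding genes tested in the length class. In Null 2 the bars step down with length from 0.32 to -0.20, with most members above them, while in Null 3 they go only from 0.04 to 0.00.

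Members with low differences in null embryo 2 were mostly long. Uqcrc2 and Ndufs1 stood at 0.05, Sdha at 0.06 and Ndufab1 at 0.08, with transcripts of 1896, 2661, 2900 and 3479 bases. Uqcrb, at 0.03 with a transcript of 535 bases, was the exception among these 5. At the other end Uqcrq stood at 0.71 with 1521 bases, Cox6b2 at 0.68 with 585 bases and Ndufa5 at 0.67 with 875 bases.

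Other gene lists differed in how far they stood from WT in the same embryo. In null embryo 2 the median log2 difference was 0.36 for 18 ATP synthase genes, 0.30 for 77 genes of the mitochondrial ribosome, 0.30 for 76 genes of the cytosolic ribosome, 0.24 for 43 assembly factors, 0.22 for 12 genes of the electron carriers cytochrome c and ubiquinone, 0.11 for 19 glycolysis genes (0.16 in null embryo 3) and 0.10 for 17 citrate cycle genes. It was 0.04 for 15 genes of the hypoxia response (0.24 in null embryo 3) and 0.00 for 18 regulators of mitochondrial biogenesis, 9 of which lay above the WT mean. Between null and WT, 0 genes were called by edgeR in each of these lists except the biogenesis regulators. At an unadjusted p under 0.05 there were 0 ATP synthase genes, 0 assembly factors, 0 cytosolic and 3 mitochondrial ribosome genes, 2 electron carrier genes and 1 citrate cycle gene. Without null embryo 2 these counts were 0, 0, 8, 1, 0 and 0, and the ATP synthase median went from 0.14 to -0.02. Glycolysis and the hypoxia response had 0 and 4 such genes, and 0 and 2 without null embryo 2, and the share over all genes was 12.2% in both fits.

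In the lists with 0 calls, the 2 genes with the smallest p are given. Among the electron carriers, Cycs (cytochrome c) was at 2.00, 1.73 and 1.87 CPM in WT, 1.65, 1.77 and 2.08 in the heterozygotes and 2.19, 3.46 and 2.85 in the null embryos (log2 fold change 0.60, adjusted p = 0.379 by edgeR, and 0.43 without null embryo 2). Coq5, a methyltransferase of ubiquinone synthesis, was at 22.0, 18.7 and 16.8 CPM in WT, 20.8, 23.4 and 21.9 in the heterozygotes and 22.7, 25.9 and 24 in the null embryos (log2 fold change 0.33, adjusted p = 0.345 by edgeR, and 0.29 without null embryo 2). The null values of both genes, taken for their small p, lay wholly above WT, as was so for 10.1% of all genes in this direction. Ddit4, a stress-induced inhibitor of mTORC1 on the hypoxia list, was at 106, 99.8 and 92.9 CPM in WT, 113, 127 and 107 in the heterozygotes and 113, 170 and 148 in the null embryos (log2 fold change 0.52, adjusted p = 0.159 by edgeR, and 0.39 without null embryo 2). As log2 fold changes with all embryos and without null embryo 2, Atpif1, the inhibitor of ATP synthase, was at 0.36 and 0.16, and its subunit Atp5f1 at 0.13 and 0.07. The assembly factors Acad9 and Surf1 were at -0.18 and -0.14 and at 0.27 and 0.13, and the citrate cycle genes Idh3g and Dld at 0.22 and 0.15 and at 0.14 and 0.08. The hexokinases Hk1 and Hk2 were at -0.19 and -0.16 and at 0.23 and 0.26, and Mxi1 of the hypoxia list at 0.25 and 0.19. The ribosomal genes Mrps31, Mrps6, Rplp1 and Rpl10 were at 0.31, 0.36, 0.31 and -0.20 with all embryos and at 0.28, 0.18, 0.21 and -0.21 without null embryo 2.

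Among 18 regulators of mitochondrial biogenesis, 1 was called, lower, as were 0.786% of all genes. At an unadjusted p under 0.05 by edgeR there were 3, against 12.2% of all genes. Esrrb, an oestrogen-related receptor, fell from 62.5, 44.6 and 47.4 CPM in WT to 18.4, 22.7 and 15.6 in the null embryos, with 42.7, 15.1 and 28.9 in the heterozygotes (log2 fold change -1.45, SE 0.177, adjusted p = 0.00768 by edgeR, and -1.59 without null embryo 2). The others of these 3 were its relatives Esrra and Esrrg, with log2 fold changes of 0.34 (adjusted p = 0.313 by edgeR) and 0.67 (adjusted p = 0.159 by edgeR). Of 8 genes typical of brown fat and muscle only 3 passed the filter on low counts. One of them, Pdk4, a kinase that inhibits pyruvate dehydrogenase, rose from 4.48, 3.88 and 3.66 CPM in WT to 13.0, 10.1 and 9.64 in the null embryos, with 8.11, 6.60 and 4.43 in the heterozygotes, a call made higher for 0.92% of all genes (log2 fold change 1.44, SE 0.184, adjusted p = 0.00955 by edgeR, and 1.5 without null embryo 2). The tissue-restricted subunit Cox7a1 was at 0.556, 0.549 and 1.09 CPM in WT 0.803, 0.901 and 0.768 in the heterozygotes and 0.991, 1.32 and 1.09 in the null embryos (log2 fold change 0.62, adjusted p = 0.566 by edgeR, and 0.50 without null embryo 2), and Cox8b held at most 1 count in a library. Ebf2, the third that passed, was at 4.48, 5.37 and 0.204 CPM in WT, 0.161, 0.505 and 0.475 in the heterozygotes and 0.454, 0.226 and 8.80 in the null embryos (log2 fold change -0.10, SE 1.34, adjusted p = 0.985 by edgeR, and 0.47 without null embryo 2). Its 3 highest values were in the 3 libraries highest in mesenchyme markers.

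Promoters of the members, 250 bases before to 50 after the annotated start in RefSeq on GRCm38.p6, were searched on both strands for motifs of factors known to act on respiratory genes. A promoter was found for 50 of the 61 members. The NRF1 motif, GCGC followed by A, any base and GCGC, was present in 10 of the 50 (20.0%), against 10.8% of 10963 protein-coding genes tested and 5.19% of all 27025 genes with a promoter in the set. The YY1 motif AAGATGGC was present in 7 (14%, against 4.9% and 3.19%), all of complex I and all beginning between 23 and 39 bases after the start. The ETS and GABP motif CCGGAAGT was present in 4 (8.0%, against 8.44% and 4.31%) and the oestrogen-related receptor motif TCAAGGTCA in 1, Sdhd (2.0%, against 0.319% and 0.466%). A match is a description of these letters and not a bound site, and no share was tested.

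The promoter stretches of Ndufa5, Ndufs6 and Sdha are shown, 250 bases before the start on the minus strand of GRCm38.p6, because all hold the NRF1 motif (in capitals) while the genes stood far apart in null embryo 2, at log2 differences of 0.67, 0.61 and 0.06 from the WT mean. They lie at chr6:24527691-24527940, chr13:73328483-73328732 and chr13:74350241-74350490, and the motif begins 26, 16, and 98, 55 and 10 bases before the start. These genes were chosen after their values were seen.
Ndufa5: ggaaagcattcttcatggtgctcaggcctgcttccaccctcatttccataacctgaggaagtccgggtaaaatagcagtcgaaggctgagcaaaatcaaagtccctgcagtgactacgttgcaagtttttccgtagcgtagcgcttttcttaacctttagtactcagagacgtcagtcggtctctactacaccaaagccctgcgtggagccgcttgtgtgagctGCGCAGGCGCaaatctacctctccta
Ndufs6: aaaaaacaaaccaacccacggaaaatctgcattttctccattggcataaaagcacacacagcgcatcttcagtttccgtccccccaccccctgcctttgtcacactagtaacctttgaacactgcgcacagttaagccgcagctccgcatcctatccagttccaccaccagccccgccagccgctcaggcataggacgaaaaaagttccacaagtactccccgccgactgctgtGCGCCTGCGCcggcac
Sdha: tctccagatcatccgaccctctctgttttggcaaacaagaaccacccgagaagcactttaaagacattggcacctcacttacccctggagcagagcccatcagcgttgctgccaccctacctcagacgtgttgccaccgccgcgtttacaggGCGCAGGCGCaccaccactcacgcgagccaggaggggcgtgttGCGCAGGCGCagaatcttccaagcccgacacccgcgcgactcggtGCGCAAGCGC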

How the data were processed

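Per the submitters' processing notes, reads were trimmed with cutadapt 1.13, aligned to mm10 with STAR and counted with HTSeq 0.6.1p1, and DESeq2 was used for the comparisons. The study prepared TruSeq mRNA libraries and read single ends of 50 bases. What the authors deposited were unnormalized counts for each Ensembl gene, and the strand setting and annotation release are not given in the sources used here. Gene names, positions and lengths were taken from GENCODE M21 on mm10.

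Members were found by the symbol rule given in the report, and both the members and the gene lists were chosen with earlier results of these data known. Pairs of genotypes were compared in R 4.3.3 with edgeR 4.0.16 (TMM, filterByExpr, quasi-likelihood, adjusted over all genes tested), on the 6 libraries of the pair. limma 3.58.1 (voom), DESeq2 1.42.0, RLE or total count scaling, other filters, a joint fit of all 9 libraries, a block for the replicate number and leaving out each embryo were alternatives. Counts simulated for 16767 genes in the null to WT design gave 1.49% recovery at a log2 change of 0.5, 54.5% at 1 and 82.3% at 2, with 7 false calls. The 3 embryos per genotype were separate littermates, and whether all 9 came from 1 litter is not given in the sources used here. Total counts were 24095322 to 30819118, and intervals cover these samples only.

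Windows of 50 bases were compared with annotated transcripts on both strands, since no genome sequence was used here. Where exons overlap a gene on the other strand, as for Ndufb6 and Smim27 (39.0% of its exon bases), Ndufa13 and Tssk6 (30.0%) or Uqcrc2 and Pdzd9 (19.7%), reads of both genes may be counted together. Log2 differences from the WT mean used CPM with a pseudocount of 0.5. Per-embryo values are given for any member past the threshold, the 5 highest and the 5 lowest log2 fold changes between null and WT, complex II, the paralogue pairs, the highest and lowest of each complex, and Prdm16. From each list the rule took the called genes or the 2 with the smallest p, given per embryo for Esrrb, Pdk4, Cycs, Coq5 and Ddit4 and as log2 fold changes for the rest. Other genes named were chosen after their values were seen.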

Additional observations from a re-analysis of the deposited data

How the results depend on the processing

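No member was called in any comparison under any alternative that kept more than 1 embryo of each genotype. Between null and WT these fits called 0.174% to 1.92% of all genes higher and 0.208% to 1.63% lower. Between heterozygotes and WT, 0% of all genes were called in the joint fit of all 9 libraries or without heterozygote 2 or 3. There the lack of called members says nothing about the members. The direction of the members' median between null and WT depended on null embryo 2. The null to WT median was 0.07 to 0.16 under the alternatives that kept all 6 libraries, and -0.01 to 0.27 when single embryos were left out, with 27 to 58 of 61 members above 0. The heterozygote to WT median was -0.06 to -0.01 without single embryos and 0.03 without the 3 libraries highest in mesenchyme markers, an alternative that leaves 1 WT embryo and was chosen, like the length trend and the shared windows, after seeing the data. The null to heterozygote median was 0.01 to 0.29 without single embryos. Members at an unadjusted p under 0.05 between null and WT numbered 17 without null embryo 1 (15.4% of all genes), 2 without null embryo 2 (12.2%), 1 without WT embryo 1 or 2 (8.61% and 7.66%) and 0 without WT embryo 3 (9.94%). Between heterozygotes and WT they numbered 0 without heterozygote 2 (10.3% of all genes) and 1 without WT embryo 2 (9.01%), and between null and heterozygote 25 without null embryo 1 (20% of all genes), 2 without heterozygote 3 (6.76%) and 0 without null embryo 2 or heterozygote 1 or 2 (12.7%, 7.15% and 6.67%). For any difference among the 3 genotypes they ranged from 1 to 26 without single embryos, the highest without null embryo 1 (20.9% of all genes). Named members close to 0 changed sign, none being called. Without single embryos the null to WT log2 fold change ranged from -0.17 to 0.19 for Ndufa2, -0.09 to 0.19 for Ndufa4, -0.14 to 0.07 for Ndufa9, -0.06 to 0.07 for Ndufab1, -0.23 to 0.12 for Ndufb4, -0.07 to 0.01 for Ndufs1, -0.04 to 0.01 for Sdha, -0.02 to 0.21 for Sdhb, -0.11 to 0.11 for Sdhc, -0.07 to 0.18 for Sdhd, -0.08 to 0.02 for Uqcrb, -0.08 to 0.02 for Uqcrc2, -0.07 to 0.29 for Uqcrh, -0.03 to 0.30 for Cox4i1, -0.01 to 0.29 for Cox6a1, -0.02 to 0.24 for Cox6b1, -0.01 to 0.46 for Cox6b2, -0.03 to 0.25 for Cox7a2 and -0.20 to 0.17 for Cox7a2l. With the length trend taken out it was -0.06 for Ndufa2, -0.0009 for Ndufa4, -0.03 for Sdhd and -0.07 for Cox7a2l. Without the 3 libraries highest in mesenchyme markers it was 0.14 for Ndufa9, 0.25 for Ndufb4, 0.01 for Ndufs1, 0.05 for Sdha and 0.04 for Uqcrc2, and with total counts only -0.0004 for Sdhc. The causes of these changes were not tested.

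Libraries of different genotypes carry the same numbers in their labels, and with the number as a replicate block the null to WT median was 0.14 with 52 of 61 members above 0, Sdhc was at -0.002 and Cox7a2l at -0.005, and no call changed. The correlation of same-numbered libraries in their deviations from the genotype means ran from -0.307 to 0.277 over the 9 pairs, so the numbers were not taken to pair the embryos. Leaving a genotype with 2 embryos, each fit of a pair without a single embryo rests on 5 libraries, and each test among the 3 genotypes on 8.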

Other observations

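Ndufb1-ps (ENSMUSG00000113902), annotated as a non-coding RNA and so outside the symbol rule, held 779, 717 and 747 counts in WT, 610, 668 and 822 in the heterozygotes and 684, 1129 and 770 in the null embryos. Like most of the complex I subunits, it was highest in null embryo 2 (36.5 CPM against 24.1 to 32.3 CPM in the other libraries), with a null to WT log2 fold change of 0.23 (SE 0.121, adjusted p = 0.502 by edgeR) and 0.14 without null embryo 2.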
